A study of Mus musculus with 4 samples.

Results

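The bead step that takes CD45+ and CD31+ cells out of a mouse lung tumour suspension was examined by setting, within each treatment, the single-cell library made after depletion against the library made before it. Cells were chosen by a gate on transcripts: at least 200 genes detected, at most 20% of UMIs (unique molecular identifiers, each standing for 1 captured transcript) from mt- genes, at least 2 UMIs summed over Epcam, Cdh1, Krt8, Krt18 and Cldn18, and 0 UMIs of Cdh5 and Col1a2. This epithelial gate held 19778 of the 28085 cells that passed the filters on genes and mt- UMIs, or 70.4%. It held 3015 cells of the vehicle library before depletion, 6519 of the vehicle library after it, 3114 of the library labelled tamoxifen before depletion and 7130 of the library labelled tamoxifen after it.

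All 4 libraries came from mice with the alleles KrasFSF-G12D, p53frt, Rosa-FSF-CreERT2 and Hnf4aflox, in which an adenovirus carrying mSPC-FlpO started the tumours. FlpO is a recombinase that acts on FSF and frt sites, and the SPC (surfactant protein C) promoter drives it chiefly in alveolar type 2 cells. CreERT2 is a Cre recombinase that tamoxifen activates. Tamoxifen or vehicle (ethanol in one label, corn oil in another) was injected 10 weeks after the virus, and tumours were taken 2 weeks later. A portion of each suspension was frozen before depletion, and the rest passed over LD columns with CD45 and CD31 beads before freezing. Both portions were thawed and sorted for live single cells before 10x 3′ capture. There was 1 library per group, and the number of animals behind a suspension is not given in the sources used here. No difference below has a replicate check, and all intervals are 95% intervals that cover counting error only.

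CD45, the product of Ptprc, lies on the surface of nearly all leukocytes, and CD31, the product of Pecam1, on endothelial cells, so beads against both leave tumour epithelium behind. RNA set free by broken cells is captured together with whole cells in droplet methods, and a cell then carries some transcripts of whatever cells share its suspension. Handling of cells is known to switch on immediate early genes such as Fos and heat shock genes such as Hspa1a.

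The libraries held 6558 to 7867 cell barcodes and 92644997 to 144994771 UMIs each. Pairs of libraries shared 10 to 18 barcodes, at most 0.274% of the smaller library. Median UMIs of gated cells were 17022 before and 18329 after depletion in vehicle, and 15112 and 16968 under the tamoxifen label. In gated cells after depletion, Hnf4a was at 54.9 CPM in vehicle and at 82.2 CPM under the tamoxifen label. CPM stands for a gene's UMIs per 1000000 UMIs of all cells summed. Which exons the Hnf4aflox allele loses is not given in the sources used here, and 3′ tags outside them would check nothing, so the treatment is named below only as labelled.

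The CD45 target was far lower after depletion, and the CD31 target less so. Over all cells that passed the filters, Ptprc was at 484 CPM before and 0.693 CPM after depletion in vehicle, and at 377 and 0.690 CPM under the tamoxifen label. Cells with a Ptprc UMI made up 80.9% and 0.682%, and 77.9% and 0.812%. Pecam1 was at 65.9 and 31.2 CPM, and at 45.3 and 25.8 CPM. Both genes were lower after depletion in both treatments, and Pecam1 stayed well above 0. Most Pecam1 left after depletion lay in the epithelial gate, with 2770 of 4499 UMIs in vehicle and 2514 of 3634 under the tamoxifen label. In that gate Pecam1 was not lower after depletion, at 17.4 and 20.3 CPM, and at 13.996 and 18.5 CPM. Epcam, the epithelial adhesion protein, was at 386 and 776 CPM, and at 365 and 704 CPM over all cells that passed the filters. Endothelial cells, gated on Cdh5, Cldn5, Egfl7 and Ramp2, made up 2.22% (1.89 to 2.58) of vehicle cells before depletion and 1.51% (1.23 to 1.82) after it (exact Clopper-Pearson intervals). Under the tamoxifen label they made up 2.55% (2.18 to 2.98) and 1.26% (1.02 to 1.54). Their share was lower after depletion in both treatments, and other cells leaving the suspension also move this share.

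Before depletion most cells of the epithelial gate carried leukocyte transcripts, so the name stands only for the rule. At least 2 UMIs of Ptprc, Laptm5, Coro1a, Cd52 and Tyrobp were present in 75.1% (73.5 to 76.6) of gated vehicle cells before depletion and in 0.966% (0.743 to 1.23) after it. Under the tamoxifen label the shares were 76.1% (74.6 to 77.6) and 0.252% (0.150 to 0.399). Thinning every cell to 2000 UMIs, which puts all cells at 1 depth, gave 66.6% and 0.156%, and 65.6% and 0.0423%. Cells with 2 epithelial UMIs, just inside the gate, carried 5 or more of these leukocyte UMIs per 10000 UMIs in 482 of 491 vehicle cells before depletion, and cells with 1 epithelial UMI, just outside it, in 1030 of 1039.

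Leukocyte UMIs split the gated cells into a low and a high class, and a bound at 5 per 10000 UMIs was set after these values were seen. It left 970 and 6505 vehicle cells before and after depletion, and 1026 and 7126 cells under the tamoxifen label, called leukocyte-low cells below. Before depletion, Krt8, a keratin of simple epithelia, had a UMI in 96.2% and 97.0% of leukocyte-low cells (vehicle, then tamoxifen label), and Nkx2-1, the lung epithelial transcription factor, in 92.0% and 93.8%. In the 2045 and 2088 gated cells above the bound, Krt8 had a UMI in 22.6% and 23.1% and Nkx2-1 in 9.14% and 9.24%, while Epcam had one in 83.2% and 83.4%. Their median epithelial UMIs were 5 and 4, against 79 and 107 in leukocyte-low cells. After depletion 14 and 4 cells lay above the bound.

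**Figure D1:**
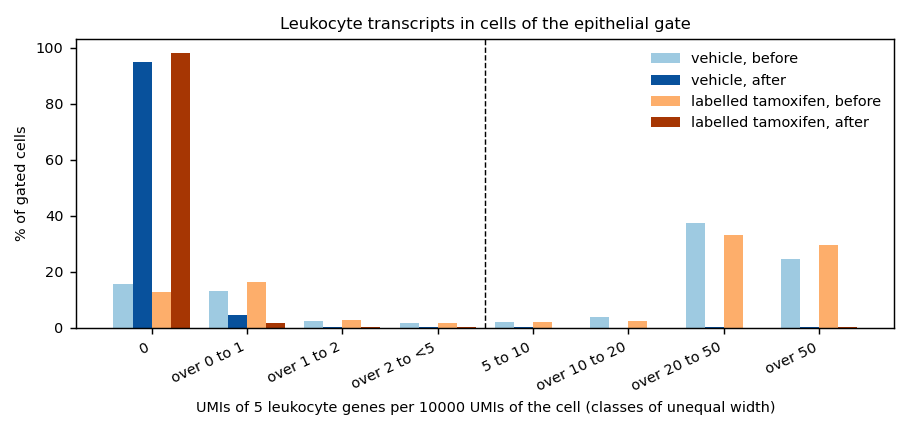
Share of cells of the epithelial gate (vertical axis, %) by their UMIs of 5 leukocyte genes per 10000 UMIs (horizontal axis, classes of unequal width), with 1 bar for each library. Both libraries before depletion hold a second group of cells above 20 per 10000, and both libraries after depletion lie almost wholly at 0.

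In the whole gate, leukocyte genes made up most of what differed. For a gene to count, each treatment needed a library with 10 CPM or more of it, and both treatments a difference of at least 2-fold in the same direction, on the scale of log2(CPM + 1), which understates the change of low genes. Of 9617 genes that reached the minimum, 1011 were lower after depletion in both treatments, which is 10.5%, and 54 were higher, which is 0.562%. With the mean over cells in place of summed UMIs the counts were 1328 lower and 1043 higher. Of the 1011 lower genes, 811 had their highest level before depletion in the leukocyte gate, 122 in the endothelial gate, 75 in the stromal gate and 3 in leukocyte-low cells. The endothelial and stromal gates carried leukocyte transcripts themselves before depletion, with at least 2 of the 5 genes' UMIs in 28.4% and 49.0% of their vehicle cells. Of the 54 higher genes, 45 had their highest level in leukocyte-low cells and 0 in the leukocyte gate.

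Genes of macrophages and of B and plasma cells were among the largest falls. Chil3, a chitinase-like protein of alveolar macrophages, was at 1311 CPM before and 0.924 CPM after depletion in vehicle, and at 1355 and 0.25 CPM under the tamoxifen label. Ear2, a ribonuclease of alveolar macrophages, was at 324 and 0.132 CPM, and at 406 and 0.206 CPM. C1qa, a chain of complement C1q made by tissue macrophages, was at 464 and 0.726 CPM, and at 337 and 0.118 CPM. For each, both libraries before depletion lay far above both after it. Laptm5, a lysosomal membrane protein of leukocytes, was at 495 and 0.411 CPM, and at 526 and 0.272 CPM. Il1b, the cytokine interleukin 1 beta, was at 929 and 2.88 CPM, and at 647 and 0.191 CPM. Igkc, the kappa light chain of B and plasma cells, was at 6867 and 10.0 CPM, and at 5610.5 and 0.0957 CPM. The other genes among the 15 largest falls were Ccl6, Jchain, Plek, Tyrobp, C1qb, Ctss, Ighm, Sirpa and Cybb, all genes of myeloid or B lineage cells, and the 15 had log2 ratios of -7.77 to -12.32.

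Of the 57 tested members of the 8 immune lists, 52 were lower in both treatments and 0 were higher. A member that reached 10 CPM only before depletion could only be lower, so the minimum favours falls in these counts and medians. The pan-leukocyte list had 12 of 12 lower, with a median log2 ratio of -6.69 and -6.81 (vehicle, then tamoxifen label), against 0.04 and 0.07 over all tested genes. Alveolar macrophage genes had 9 of 10 lower (medians -4.73 and -5.98), monocyte and macrophage genes 9 of 10 (-5.94 and -5.54), and neutrophil genes 5 of 7 (-4.72 and -5.18). T cell genes had 6 of 6 lower (-3.90 and -4.27), B and plasma cell genes 5 of 6 (-6.94 and -7.48) and dendritic cell genes 5 of 5 (-4.28 and -3.61). Each of these lists had a median far below that of all tested genes in both treatments. The 7 MHC class II genes, which antigen-presenting cells use and alveolar type 2 cells also make, were lower as well: H2-Aa was at 2524 and 396 CPM, and at 1747 and 331 CPM. Among leukocyte-low cells 0 of the 7 were 2-fold apart, and H2-Aa was at 439.7 and 392 CPM, and at 361 and 330.0 CPM.

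Scgb1a1, the secretoglobin of airway club cells, led the rises of the whole gate, at 11.6 CPM before and 352 CPM after depletion in vehicle, and at 18.8 and 462 CPM under the tamoxifen label. Cxcl5, a neutrophil-attracting chemokine, was at 6.15 and 19.9 CPM, and at 6.99 and 24.7 CPM. Agr2, a protein disulfide isomerase of mucous cells, was at 39.1 and 115 CPM, and at 10.4 and 39.3 CPM. Each was higher after depletion in both treatments. Fosl1, an AP-1 subunit, was at 15.9 and 40.4 CPM, and at 8.07 and 20.8 CPM. Also among the 12 largest rises were a (nonagouti), the proteases Mcpt1, Mcpt2 and Gzme, Ttc23l, Tcim and Gt(ROSA)26Sor, with log2 ratios of 1.32 to 2.08.

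**Figure D2:**
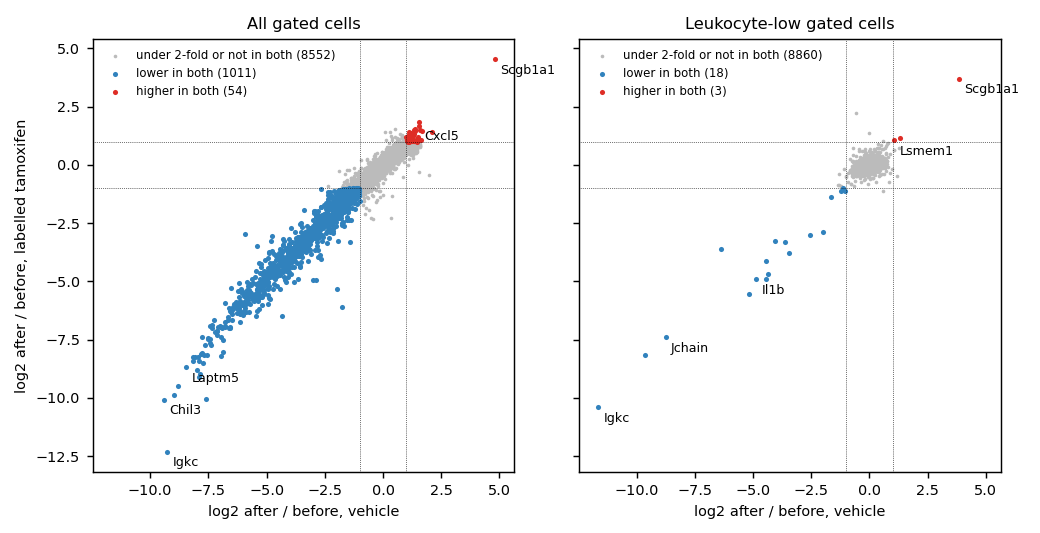
Log2 ratio after over before depletion for each tested gene in the vehicle libraries and in those labelled tamoxifen, for all gated cells (left) and leukocyte-low cells (right), with lines at 2-fold. Of 9617 tested genes on the left 1011 are lower, and of 8881 on the right 18 are, where the leukocyte bound lowers the count by construction. Scgb1a1 lies apart at the upper right in both panels.

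Among leukocyte-low cells few tested genes were apart. The bound took out 2045 and 2088 gated cells before depletion (vehicle, then tamoxifen label) and 14 and 4 after it. It thus lowers the count of falling leukocyte genes by construction. Of 8881 tested genes, 18 were lower in both treatments, which is 0.203%, and 3 were higher, which is 0.0338%. The median log2 ratio of all tested genes was -0.07 and -0.02. Of the 18 lower genes, 15 were transcripts of immune cells: Igkc, Igha, Jchain, Iglc1, Iglv1 and Mzb1 of plasma cells, Il1b, Chil3, Ccl6, Srgn, Ctss, S100a9 and Fcer1g of myeloid cells, Cytip of lymphocytes, and Tyrobp, which the bound itself used. The other 3, named after their values were seen, were Cmss1, Gm19951 and Gm26532. Of the 77 genes on the 8 immune lists, 17 were tested, 8 were lower in both treatments and 0 were higher. The minimum favours falls here too, as members above it only before depletion could only be lower. Genes under the CPM minimum were not counted, such as C1qa at 4.38 and 0.0441 CPM, and at 7.06 and 0.0221 CPM. With no minimum, over a larger set of genes, the counts were 127 lower and 7 higher.

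Myeloid transcripts were present in many leukocyte-low cells before depletion, with a part of their UMIs in few cells. Il1b was at 31.2 CPM before and 0.118 CPM after depletion in vehicle, and at 30.5 and 0.0442 CPM under the tamoxifen label, or 266-fold and 691-fold lower. Chil3 was at 25.5 and 0.228 CPM, and at 33.6 and 0.169 CPM, or 112-fold and 199-fold lower (CPM without the added 1). S100a9, a calcium-binding protein of neutrophils, was at 17.6 and 0.103 CPM, and at 14.6 and 0.619 CPM. For each, both libraries before depletion lay far above both after it. Chil3 had a UMI in 41.5% of vehicle cells before depletion and 0.292% after it, and in 42.3% and 0.295% of those labelled tamoxifen. After thinning to 2000 UMIs these shares were 4.85% and 0.0313%, and 5.48% and 0.0424%. The 10 cells with most Chil3 held 28.2% and 38% of its UMIs before depletion, and without them Chil3 was at 18.6 and 21.2 CPM. For Il1b they held 35.0% and 43.6%, leaving 20.7 and 17.5 CPM, and for S100a9 53.3% and 30.4%, leaving 8.37 and 10.3 CPM. The remaining cells still lay above the full level after depletion for all 3 genes.

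Plasma cell transcripts lay in few cells instead. Igkc was at 3495 CPM before and 0.0955 CPM after depletion in vehicle, and at 1487 and 0.0957 CPM under the tamoxifen label. Before depletion 10 cells held 98.9% and 97.1% of its UMIs, with up to 20815 and 23620 UMIs in 1 cell. Without those cells Igkc was at 40.3 and 44.0 CPM. Igkc thus had a thin level over the remaining cells beside a few very high barcodes. Jchain, which joins IgA and IgM, was at 502 and 195 CPM before depletion, and at 5.04 and 7.82 CPM without its 10 highest cells. Iglc1, a lambda constant region, was at 34.8 and 45.8 CPM before depletion and had 0 UMIs after it, which is at least 1579-fold and 2071-fold lower with a floor of 3 counts per library. Whether the very high barcodes held plasma cells together with epithelial cells was not tested.

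Levels in leukocyte-low cells were also set against the leukocyte gate of the same library before depletion. That gate took cells with under 2 epithelial UMIs, so it left out the 2045 and 2088 gated cells above the bound. How far those cells would change the percents below was not tested. The bound also keeps the cells with most leukocyte transcripts out of the leukocyte-low cells, which can lower these percents by construction. With the level after depletion subtracted, the median alveolar macrophage gene in leukocyte-low cells stood at 1.27% and 1.52% (8 genes) of its leukocyte-gate level, over genes of at least 50 CPM there. Neutrophil genes stood at 1.07% and 0.946% (9 genes), pan-leukocyte genes outside the bound at 0.978% and 0.932% (7 genes), T cell genes at 0.919% and 0.524% (8 genes), and monocyte and macrophage genes at 0.486% and 0.560% (10 genes). The B and plasma cell list split around a median of 8.64% in vehicle (8 genes) and 12.8% under the tamoxifen label (5 genes). Jchain, Igkc and Mzb1 stood far higher than the medians above, at 152%, 118.5% and 13.4%, and at 51.6%, 46.7% and 12.8%. Ighm stood at 51.6% in vehicle but at 0.630% under the tamoxifen label. Cd79a stood at 3.87% and 0.520%. The other members, counted in vehicle only, were low, with Ighd at 1.22%, Ms4a1 at 0.537% and Cd79b at -3.42%. Dendritic cell genes stood at 0.963% (3 genes) and 5.04% (2 genes), and NK cell genes at 0.608% and 0.592% (2 genes). Alveolar macrophage genes stood higher than monocyte and macrophage genes in both treatments, and that difference was not tested. Chil3 was at 1.38% and 1.62%, Il1r2, a decoy receptor of neutrophils, at 1.07% and 0.946%, and C1qa at 0.429% and 0.595%. Some list members stayed present after depletion, among them Hdc, the histamine-forming enzyme, at 107 and 96.9 CPM, and at 218 and 195 CPM, and Plet1 at 58.7 and 62.7 CPM, and at 103 and 93.6 CPM.

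**Figure D3:**
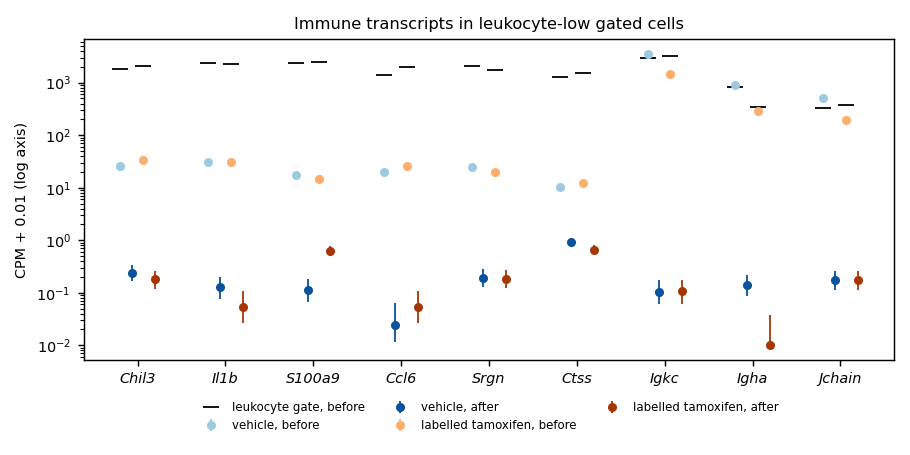
Level of immune transcripts in leukocyte-low cells (CPM + 0.01, log axis) in each of the 4 libraries, with exact Poisson 95% intervals; black dashes give the leukocyte gate of the same library before depletion. Chil3 lies near 1% of its leukocyte level before depletion and below 1 CPM after it, while Igkc, Igha and Jchain lie far closer to the leukocyte level before depletion.

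Sftpc, the surfactant protein that alveolar type 2 cells make in great amount, ran the opposite way in cells that do not make it. In the endothelial gate it was at 208 CPM before and 1512 CPM after depletion in vehicle, and at 237 and 1436 CPM under the tamoxifen label. In the stromal gate it was at 178 and 1284 CPM, and at 233 and 1112 CPM. Thinned to 2000 UMIs, 36.1% and 92.4%, and 39.5% and 92.6% of endothelial cells had an Sftpc UMI. Both gates thus carried more Sftpc after depletion in each treatment. Leukocyte-low cells had Sftpc at 61430.4 and 65989.9 CPM, and at 64631 and 68864 CPM.

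Scgb1a1 was the 1 gene more than 4-fold higher in both treatments in leukocyte-low cells. It was at 23.5 CPM before and 353 CPM after depletion in vehicle, and at 34.6 and 462 CPM under the tamoxifen label, or 15-fold and 13.3-fold higher (log2 intervals 3.8 to 4.02 and 3.65 to 3.82). After depletion 10 cells held 94.4% and 94.2% of its UMIs, and 1 cell alone held 18095 and 31435. Without the 10 highest cells of each library Scgb1a1 was at 6.67 CPM and 19.8 CPM, and 8.60 CPM and 26.8 CPM. These 10 are a larger share of the cells before depletion than after it, so no direction is read from the remainder. Cells with a Scgb1a1 UMI made up 10.7% and 21.6%, and 13.1% and 22.5%. Thinned to 2000 UMIs the shares were 2.63% (1.71 to 3.86) and 3.99% (3.52 to 4.50) in vehicle. Under the tamoxifen label they were 3.13% (2.15 to 4.40) and 4.59% (4.11 to 5.10). The thinned share was higher after depletion in each treatment, and that difference was not tested. The endothelial gate, which should lack it, had 1 and 14 UMIs in vehicle, and 1 and 9 under the tamoxifen label. The gene lies at chr19:9083636-9087958 on the minus strand in GRCm38.

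The other 2 higher genes were nearer the 2-fold bound. Lsmem1, a small membrane protein gene at chr12:40175493-40199490 in GRCm38, was at 45.0 and 94.9 CPM, and at 54.2 and 113 CPM, with log2 ratios of 1.06 and 1.05. The gene a, which encodes the agouti signalling protein, was at 9.75 and 25.7 CPM, and at 8.32 and 19.6 CPM. Lsmem1 was also higher in the endothelial gate, at 33.8 and 71.6 CPM, and at 20.7 and 48.2 CPM. The stromal gate had it at 49.5 and 60.2 CPM, and at 60.4 and 78.6 CPM.

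Cmss1, a ribosome biogenesis gene, was lower after depletion in the leukocyte-low, endothelial and stromal gates. Leukocyte-low cells had it at 1059.5 and 485 CPM, and at 1562 and 775 CPM. Endothelial cells had it at 2360.2 and 1073 CPM, and at 3730.2 and 1931 CPM, and stromal cells at 1216 and 767 CPM, and at 2435 and 1115 CPM. Gm42418, a transcript that overlaps ribosomal RNA sequence, was at 11494 and 5689.9 CPM, and at 13461 and 9386 CPM in leukocyte-low cells, and Lars2, a mitochondrial leucyl-tRNA synthetase, at 387 and 157 CPM, and at 400.3 and 222 CPM. Both were lower in the endothelial gate too, where Lars2 was at 648 CPM and 194 CPM, and 645 CPM and 248 CPM. AY036118, another transcript of ribosomal RNA origin, was at 306 and 264 CPM, and at 464 and 487 CPM, and its direction differed between treatments.

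No stress gene was 2-fold apart in leukocyte-low cells. Of 83 genes on the 6 stress lists, 77 were tested and 0 were 2-fold apart the same way in both treatments, beside 0.0338% higher and 0.203% lower of all tested genes. Their log2 ratios ran from -0.79 to 0.77 in vehicle and from -0.83 to 0.91 under the tamoxifen label. In both treatments 34 of the 77 were above 0 and 18 below it, beside 2432 above and 4067 below of all 8881 tested genes. Stress genes thus lay above 0 in a larger share than all genes did, which was not tested. The median of the 20 immediate early genes was 0.09 and 0.14, of the 15 heat shock genes 0.21 and 0.01, and of 13 unfolded protein and integrated stress genes 0.08 and 0.02. The median of 11 hypoxia and glycolysis genes was 0.14 and 0.07, of 9 NF-kB targets -0.30 and -0.05, and of 9 oxidative stress and metallothionein genes 0.02 and 0.07. All tested genes had medians of -0.07 and -0.02.

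Immediate early genes were high before depletion already. Fos was at 2070 CPM before and 2366 CPM after depletion in vehicle, and at 2395 and 2537 CPM under the tamoxifen label. Jun, its partner in the AP-1 factor, was at 1369 and 1744 CPM, and at 1608 and 1864 CPM. Atf3, a stress-induced transcription factor, was at 713 and 980.3 CPM, and at 698 and 881 CPM, with log2 ratios of 0.46 and 0.34. Each was under 1.5-fold higher after depletion in both treatments. Hspa1a, the inducible Hsp70 chaperone, was at 97.1 and 158 CPM, and at 134 and 111 CPM, so that its direction differed between treatments, which was not tested. Hspa5, the chaperone BiP, was at 503 and 667 CPM, and at 444 and 507 CPM. Among NF-kB targets, Cxcl5 was at 11.3 and 19.9 CPM, and at 12.6 and 24.7 CPM, and the chemokine Cxcl2 at 55.8 and 31.9 CPM, and at 56.3 and 31.3 CPM. These had the highest and the lowest log2 ratios of the stress genes in each treatment.

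**Figure D4:**
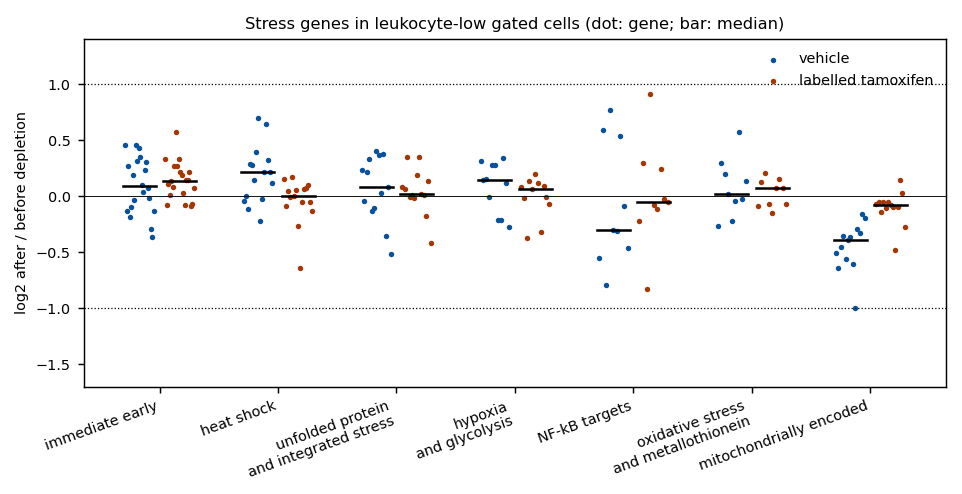
Log2 ratio after over before depletion in leukocyte-low cells for each tested gene of the 6 stress lists and the 13 mitochondrially encoded genes, vehicle and tamoxifen label side by side, with medians and lines at 2-fold. No stress gene passes 2-fold in either treatment.

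Measures of RNA quality differed between portions, more in vehicle than under the tamoxifen label. All 13 mitochondrially encoded genes were lower after depletion in vehicle, with a median log2 ratio of -0.39, and 11 of 13 under the tamoxifen label, with a median of -0.08. The median mt- share of leukocyte-low cells was 4.26% and 2.97%, and 3.92% and 3.75%. Malat1, a nuclear noncoding RNA, was at 10473 and 17478 CPM, and at 9744 and 10851 CPM. Their part in the stress and state values was not tested.

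In the whole gate, 10 of 79 tested stress genes were 2-fold apart, 8 of them lower, beside 10.5% lower and 0.562% higher of all tested genes, so that the lower count is near the background. Of the 8, Tnfaip2, Cxcl2, Nfkbie, Slc7a11, Tnfaip3 and Sdf2l1 had their highest level before depletion in the leukocyte gate, and Socs3 and Xbp1 in the endothelial gate. Tnfaip2, a gene induced by tumour necrosis factor, was at 124.7 and 0.924 CPM, and at 134 and 0.567 CPM. Cxcl2 was at 1135 and 37.1 CPM, and at 737 and 31.5 CPM. Nfkbie, an inhibitor of NF-kB, was at 35.0 and 1.63 CPM, and at 24.0 and 1.22 CPM. The 2 higher genes were Fosl1 and Cxcl5, both highest in leukocyte-low cells.

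Promoters of Tnfaip2, Cxcl2 and Nfkbie, the 3 stress genes with the largest falls, are shown to let their sequence be read beside their values. They are the 250 bases before the start in RefSeq GRCm38.p6, 5′ to 3′ on the gene's strand, with capitals for matches on either strand to GAANNTTC (heat shock element core), TGACTCA (AP-1), TGACGTCA (CRE) or the NF-kB core, GGG and CC with 5 bases of any kind between them, overlaps allowed. Tnfaip2 is read at chr12:111442411-111442660, Cxcl2 at chr5:90903649-90903898 and Nfkbie at chr17:45555450-45555699, all on the plus strand.
Tnfaip2: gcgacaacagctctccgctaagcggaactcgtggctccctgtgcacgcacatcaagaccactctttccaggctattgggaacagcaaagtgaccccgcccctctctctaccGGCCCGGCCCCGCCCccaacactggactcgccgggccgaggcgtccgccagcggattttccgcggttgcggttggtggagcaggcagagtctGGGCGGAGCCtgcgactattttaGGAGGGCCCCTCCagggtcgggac
Cxcl2: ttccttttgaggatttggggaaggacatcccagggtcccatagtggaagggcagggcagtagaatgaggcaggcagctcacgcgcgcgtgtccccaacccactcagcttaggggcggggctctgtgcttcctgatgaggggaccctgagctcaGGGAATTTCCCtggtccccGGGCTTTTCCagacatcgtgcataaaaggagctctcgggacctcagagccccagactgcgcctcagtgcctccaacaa
Nfkbie: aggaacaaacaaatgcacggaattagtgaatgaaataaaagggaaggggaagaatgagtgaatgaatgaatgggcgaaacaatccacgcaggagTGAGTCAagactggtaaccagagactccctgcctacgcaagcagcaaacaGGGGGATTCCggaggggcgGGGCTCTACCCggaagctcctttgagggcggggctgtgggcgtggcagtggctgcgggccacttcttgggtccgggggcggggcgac
The NF-kB core matched at 5 places in Tnfaip2, 3 in Cxcl2, 3 in Nfkbie and 1 in Slc7a11, the fourth promoter read. Nfkbie also held 1 TGACTCA. Of all 32851 promoters in the table, 45.8% hold the NF-kB core in the same window, 4.46% TGACTCA, 6.69% GAANNTTC and 1.55% TGACGTCA. A match describes letters only.

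Shares of most epithelial states differed between portions in the whole gate. In the whole gate, cells with at least 50 UMIs of alveolar type 2 genes after thinning to 2000 UMIs made up 27.0% and 72.3%, and 27.6% and 74.4%. Of 15 state scores, 11 were higher after depletion in both treatments with intervals clear of 0, and 2 were lower, the G2/M and S phase scores. Among leukocyte-low cells, 2 of the 15 were higher in both treatments and 0 were lower. The alveolar type 2 share at 50 UMIs was 74.1% and 72.4%, and 74.5% and 74.5% there, a difference of -1.67 points (-4.65 to 1.44) in vehicle and of -0.0607 points (-2.90 to 2.91) under the tamoxifen label.

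The transitional score, a sum of 10 genes of injured or dedifferentiating alveolar cells such as Krt7, Krt19, Cldn4 and Areg, was higher after depletion. Leukocyte-low cells with at least 2 of its UMIs made up 59.2% and 74.1%, and 64.4% and 71.5%. The difference was 14.9 points (11.5 to 18.2) in vehicle and 7.09 points (3.96 to 10.3) under the tamoxifen label. In endothelial cells, which should lack this state, the shares were 20.9% and 19.0%, and 23.6% and 16.0%, at median depths of 13756 and 7860, and 10664 and 7293 UMIs before thinning. Leukocyte-low cells lay above this background in all 4 libraries. Without thinning the shares were 94.0% and 96.7%, and 96.8% and 97.3%. Tnfrsf12a, the receptor of the cytokine TWEAK, was at 286 and 419.7 CPM, and at 255 and 315 CPM, and Areg, the growth factor amphiregulin, at 734 and 1098 CPM, and at 783 and 889 CPM. Of the 9 tested genes of the list, 0 were 2-fold apart in both treatments, and their median log2 ratio was 0.37 and 0.11. The second score that was higher was alveolar type 2 at 2 UMIs, at 94.6% and 98.7%, and 96.4% and 98.5%. Its share in endothelial cells was 22.2% and 85.7%, and 30.6% and 89.4%, so that after depletion most endothelial cells met it too.

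At the thinned depth, each of the following states differed in 1 treatment or in neither with an interval clear of 0. The gastrointestinal score, a sum of genes such as Agr2, Tff1 and Ctse, was met by 19.8% and 27.4%, and 16.5% and 17.9% of leukocyte-low cells, a difference of 7.56 points (4.67 to 10.3) in vehicle and 1.41 points (-1.17 to 3.81) under the tamoxifen label. The hepatic score, with liver secretory genes such as Ttr and Gc, was met by 5.48% and 8.08%, and 5.09% and 5.83%. Alveolar type 1 genes were met by 67.8% and 70.6%, and 67.0% and 66.0%. The G2/M score was met by 9.80% and 7.83%, and 9.60% and 8.29%, beside 12% and 7.62%, and 7.01% and 11.7% of endothelial cells. Cells with at least 2 UMIs of Dlk1, an imprinted membrane protein, made up 10.2% and 11.8%, and 20.7% and 21.6%.

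Depth differed between portions in leukocyte-low cells, with median UMIs of 25370 and 18349, and 28588 and 16972. Among cells of 10000 to 30000 UMIs, 457 and 3896 in vehicle and 434 and 4755 under the tamoxifen label, the transitional score was met by 47.3% and 73.0%, and 57.6% and 71.9%. The gastrointestinal score was then met by 8.32% and 22.9%, and 12.2% and 18.1%, Dlk1 by 5.47% and 12.3%, and 11.3% and 22.5%, and the hepatic score by 0.875% and 5.29%, and 2.30% and 5.72%. These 4 and alveolar type 2 at 2 UMIs, at 96.7% and 98.8%, and 96.3% and 98.6%, were higher after depletion in both treatments with intervals clear of 0 in this range, which was chosen after the data were seen. Alveolar type 2 at 50 UMIs ran in opposite directions there, with -8.13 points (-11.9 to -4.03) in vehicle and 4.73 points (0.449 to 9.31) under the tamoxifen label. Lyz1 was lower in vehicle, by a difference of -4.08 points (-7.24 to -1.43), and differed by -1.31 points (-3.73 to 0.494) under the tamoxifen label.

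**Figure D5:**
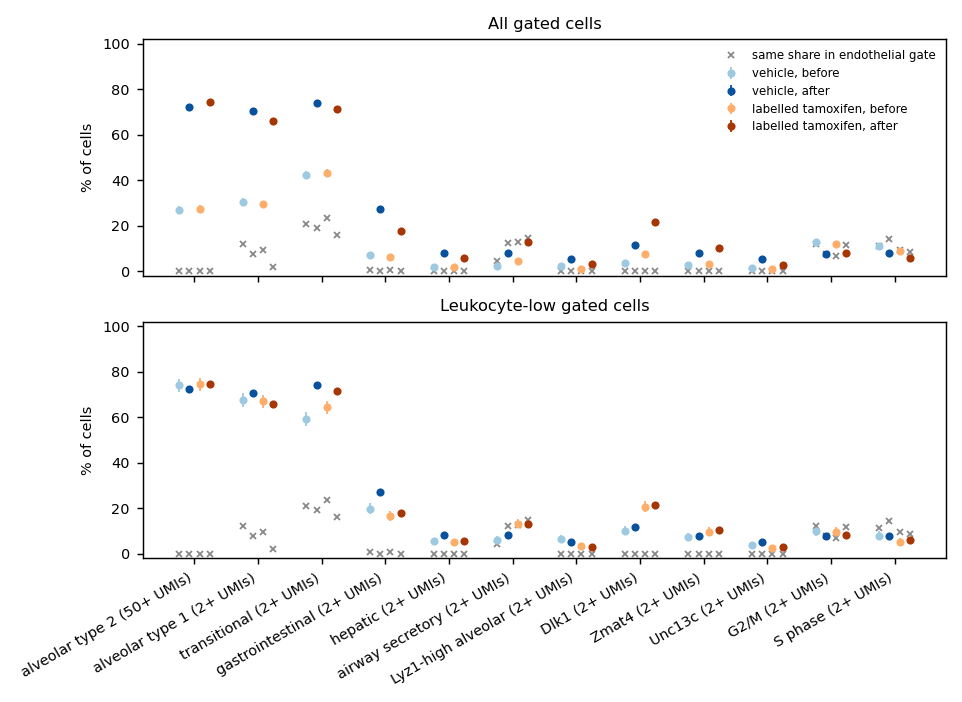
Share of cells (vertical axis, %) that met each state score after thinning to 2000 UMIs, in all gated cells and in leukocyte-low cells, for each of the 4 libraries with exact 95% intervals; grey crosses give the same share in the endothelial gate. Most states differ by portion among all gated cells, and the transitional share differs by portion among leukocyte-low cells.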

How the data were processed

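UMI counts per gene and cell barcode were deposited as 1 filtered 10x matrix per library, made with Cell Ranger 7.0.1 per the file headers; the submitters' processing notes name Cell Ranger 7.2.0 and the genome build mm10. The deposited counts were not normalized by the authors, as whole numbers in the files show. Of 32289 features, 32158 matched GENCODE M21 (GRCm38), which gave gene positions.

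Counts were summed over gated cells of a library and scaled to CPM. Ratios are log2((after + 1)/(before + 1)) in CPM. Intervals are exact Poisson for CPM, Clopper-Pearson for shares, conditional binomial for ratios, and a square-and-add interval for differences of shares. With 1 library per group no test across samples was made. State shares came from cells thinned to 2000 UMIs, leaving out shallower cells (59 and 119, and 15 and 44 of the gate). Doublets were not removed in the main analysis: Scrublet in scanpy 1.11.5 scored 216, 126, 122 and 156 cells over 0.25, and leaving them out was an alternative. Other tools were numpy 2.4.6, scipy 1.17.1, pandas 2.3.3 and matplotlib 3.10.9.

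Named genes were the 12 largest rises and 15 largest falls by the smaller of both log2 ratios, leaving out gate, mt-, Rpl, Rps, Xist, Y-linked and unnamed genes, and the 4 highest members of each list. Of these genes, 1 is not reported here. The gate, lists and rules were chosen with earlier results of these data known. Methods were tested on simulated data. Alternatives covered scaling, pseudocount, minimum, fold, averaging, gate, doublets, cell filters, thinning and the leukocyte bound.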

Additional observations from a re-analysis of the deposited data

Results flagged for a closer look

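Among leukocyte-low cells, 2 list members ran in opposite directions in the treatments, and neither difference was tested. Krt79, a keratin on the alveolar macrophage list, was at 7.89 and 14.9 CPM, and at 15.4 and 8.90 CPM, with a log2 ratio of 0.84 in vehicle and -0.73 under the tamoxifen label. In the leukocyte gate before depletion Krt79 was lower than in leukocyte-low cells, at 4.43 and 4.38 CPM. Tff1, a trefoil peptide of gastric mucous cells, was at 23.6 and 55.2 CPM, and at 86.8 and 62.4 CPM, with log2 ratios of 1.19 and -0.47.

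The count tables hold added features outside the mouse genes. Cre had 79 and 438 UMIs in leukocyte-low vehicle cells before and after depletion, and 108 and 429 under the tamoxifen label, which is 2.72 and 3.22 CPM, and 3.3 and 3.16 CPM. The recombinase feature flpO had 1 and 41 UMIs before and after depletion in vehicle, and 0 and 5 under the tamoxifen label. At the unequal depths of the libraries this is 0.0344 and 0.301 CPM, and 0 and 0.0368 CPM, all far under the CPM minimum. These features appeared without control samples to set them against.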

How the results depend on the processing

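Of the 54 genes higher in the whole gate, the count was 19 with TMM factors, 20 with a pseudocount of 5 CPM, 27 at 50 CPM or more, 1044 at 1.5-fold, 1 at 4-fold and 1043 with the mean over cells. It was 4 with at least 10 epithelial UMIs and 3 with Ptprc and Pecam1 at 0. The 1011 lower genes became 1573 with no CPM minimum, 434 at 50 CPM, 615 at 4-fold, 519 with 10 epithelial UMIs and 39 with Ptprc and Pecam1 at 0. TMM factors moved the median of all genes in the whole gate from 0.04 to -0.07 in vehicle and from 0.07 to -0.06 under the tamoxifen label. In leukocyte-low cells the 3 higher genes became 1 with a pseudocount of 5 CPM, 7 with no minimum, 11 at 1.5-fold and 1 at 4-fold. The 18 lower genes became 127 with no minimum, 6 at 50 CPM, 10 with Ptprc and Pecam1 at 0, 10 at a bound of 2 and 37 at a bound of 10 leukocyte UMIs per 10000, the bounds added after the data were seen. Of list medians at least 2-fold apart in both treatments, 0 were higher in the whole gate, or 5 with the mean over cells, and 8 lower, or 3 with Ptprc and Pecam1 at 0. In leukocyte-low cells 1 was lower, 2 with no minimum or with the mean over cells, 3 at a bound of 10, and 0 at 50 CPM, with 10 epithelial UMIs or with Ptprc and Pecam1 at 0. Leukocyte shares of gated cells (66.6%, 0.156%, 65.6%, 0.0423% in vehicle before and after and the tamoxifen label before and after) were 75.1%, 0.966%, 76.1%, 0.252% without thinning and 7.38%, 0%, 6.75%, 0% with Ptprc and Pecam1 at 0. Before depletion they were 59.7% and 60.2% at 1000 UMIs and 40.5% and 28.0% with 10 epithelial UMIs, and 1.05% and 0.686% in leukocyte-low cells. Ptprc at 0 and the leukocyte bound both select on genes of this score, so both settings lower the shares by construction. States higher in both treatments were 4 in place of 11 with Ptprc and Pecam1 at 0. States lower in the whole gate were 0 without thinning, 1 with 10 epithelial UMIs and 0 with Ptprc and Pecam1 at 0, in place of 2. In leukocyte-low cells 0 states were higher without thinning and 1 at 1000 UMIs, in place of 2, and 3 were lower without thinning, in place of 0. With Ptprc and Pecam1 at 0 the Lyz1 share of the gate turned to -0.602 and -0.147 points and the S phase share under the tamoxifen label to 0.350 points. The G2/M difference of leukocyte-low vehicle cells turned to 0.834 points at 5000 UMIs and 0.338 points at 1 UMI in place of 2. The cause of these moves was not tested, beyond fewer or more genes or cells entering.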

Other observations

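Stress genes of endothelial and stromal cells that passed through the same bead step gave further values. In the endothelial gate the immediate early list had median log2 ratios after over before depletion of 0.12 and 0.41 over 19 tested genes, beside -0.07 and -0.03 over all 9011 tested genes (vehicle, then tamoxifen label). In the stromal gate the medians were 0.07 and 0.03 over 20 tested genes, beside -0.05 and -0.03 over all 9156 tested genes. Atf3 was at 666 CPM and 868 CPM, and 678 CPM and 1068 CPM in the endothelial gate, before and after in vehicle and then under the tamoxifen label. Hspa1a, the inducible Hsp70 chaperone, was at 29.8 CPM and 55.1 CPM, and 32.8 CPM and 81.8 CPM there and at 93.7 CPM and 156 CPM, and 140.0 CPM and 164 CPM in the stromal gate, higher after depletion in each, whereas in leukocyte-low cells it was at 97.1 CPM and 158 CPM, and 134 CPM and 111 CPM. The 10 tested NF-kB targets had medians of -0.33 and -0.51 in the stromal gate and of -0.48 and 0.00 in the endothelial gate. Cxcl2 was at least 2-fold lower in both treatments in both gates, and Icam1 and Birc3 in the stromal gate. Oxidative stress and metallothionein genes had medians of -0.94 and -0.79 in the stromal gate (8 tested) and of 0.05 and 0.20 in the endothelial gate (6 tested). Slc7a11 was at least 2-fold lower in both treatments in both gates, and Hmox1 in the stromal gate. The share of all tested genes 2-fold lower in these gates is not given here, so the named genes stand without a background. Leukocyte transcripts were present in both gates before depletion, and their part in these values was not tested. The endothelial gate held 162 and 106, and 159 and 95 cells and the stromal gate 143 and 89, and 100 and 70.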
